A study of Mus musculus with 2 samples.

Results

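Cardiomyocytes almost without natriuretic peptide RNA were studied in 2 single-cell RNA libraries of the mouse heart, 1 labelled Sham and 1 labelled TAC. A barcode (the tag of 1 droplet, taken as 1 cell) was a member when it had at least 200 detected genes, when Ryr2 and Myh6 together gave at least 1% of its UMIs (tagged RNA molecules), and when it held at most 1 UMI of F13a1, Mrc1 and Adgre1, at most 4 of Col1a2, Col3a1 and Pdgfra, and at most 1 of Nppa and Nppb. This chose 2438 of 9934 barcodes in the Sham library (24.5%, exact Clopper-Pearson 95% interval 23.7 to 25.4) and 2407 of 9931 in the TAC library (24.2%, 23.4 to 25.1). The members held 46.2% and 45.3% of all UMIs, with medians of 4526 and 4946 UMIs per barcode. The members were therefore selected on the measured levels of these 10 genes, and those levels are given as a description.

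All mice were wild-type C57BL/6. For the TAC library, males were operated on at 8 weeks of age and kept for 6 weeks with a constricted aortic arch (transverse aortic constriction, TAC), which loads the left ventricle with pressure. The Sham mice had the operation without the constriction. Each library pooled cells of 3 to 5 hearts, captured on the 10x Chromium platform, and the hearts cannot be told apart in it. There was 1 library per condition and so no test and no p-value: every ratio compares these 2 libraries, and the intervals cover counting error only.

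Natriuretic peptides are hormones that heart muscle cells release when they are stretched, and they lower blood volume and pressure. Nppa encodes the atrial peptide and Nppb the B-type peptide. In the healthy adult ventricle most cardiomyocytes make little of either, and under overload both return, together with other genes of the fetal heart such as Acta1 and Myh7. Cardiomyocytes without the peptides are the working bulk of the ventricle, with the calcium release channel Ryr2, the fast myosin heavy chain Myh6 and troponin T (Tnnt2).

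The matrices held 28146691 UMIs in 9935 Sham barcodes and 29108986 in 9932 TAC barcodes, with medians of 1964 and 2143 UMIs. They shared 32 barcode sequences, of which 2 belonged to members in both. Scrublet, a doublet caller that compares each barcode with simulated pairs, called 459 Sham barcodes (4.62%) and 479 TAC barcodes (4.82%), among them 141 (5.78%) and 153 (6.36%) of the members, which were kept here. The mitochondrial share of UMIs in members was low, with medians of 0.236% and 0.130%. The nuclear RNA Malat1 gave 1690405 of 13014823 UMIs in the Sham members and 2103392 of 13184753 in the TAC members. How far the barcodes hold RNA from outside the nucleus was not tested, so low counts describe the barcodes.

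The label of these cells was checked on muscle markers that the rule did not use. Tnnt2 was seen in 2436 of 2438 Sham members (99.9%) and 2403 of 2407 TAC members (99.8%). Actn2, which crosslinks actin at the Z-disc, was seen in 88.1% and 95.2%. The ventricular light chain Myl2 was at 867 UMIs per 1000000 (exact Poisson 95% interval 851 to 883) in the Sham members and 842 (826 to 857) in the TAC members. Atrial cells were nearly absent: the atrial light chain Myl7 had 3 and 11 UMIs in all members together, and the 6 atrial markers summed to 5.38 (4.19 to 6.79) and 11.1 (9.42 to 13.1) per 1000000. The limit on Nppa, which encodes the atrial peptide, can itself leave out atrial cells, so this is no independent check. In cardiomyocyte barcodes with 2 or more peptide UMIs the 6 atrial markers summed to 5.73 (2.10 to 12.5) and 23.5 (13.2 to 38.8). Tnnt2, Actn2 and Myl2 fit the label of ventricular cardiomyocytes, although the rule admits 1 peptide UMI per barcode.

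RNA of other cell types was present at low levels. The 8 macrophage and 8 fibroblast markers each hold 3 genes that the rule limits. Without those, the 5 remaining macrophage markers gave 11.2 per 1000000 (9.47 to 13.2) in the Sham members and 18.1 (15.8 to 20.5) in the TAC members, and the 5 fibroblast markers 35.04 (31.9 to 38.4) and 43.8 (40.3 to 47.6). The 7 endothelial markers gave 83.5 and 104.0. The 6 pericyte markers gave 299.9 and 412, of which 56.3 and 81.8 remained without Abcc9, a potassium channel subunit that cardiomyocytes also express. The 4 lymphatic endothelial markers gave 139.9 and 179.8, of which 3.07 and 5.69 remained without Prox1, which is also a transcription factor of the heart. Each sum was higher in the TAC members.

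The library labelled TAC did not have more peptide RNA than the library labelled Sham, which goes against what the operation is known to do in the heart. Of the cardiomyocyte barcodes, 2188 Sham and 2292 TAC barcodes had 0 peptide UMIs and 250 and 115 had 1. Only 143 Sham and 80 TAC barcodes had 2 or more, which are called peptide-positive cardiomyocytes here, and they reached at most 12 and 32 UMIs. Sham and TAC are therefore used as the labels of the libraries.

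**Figure D1:**
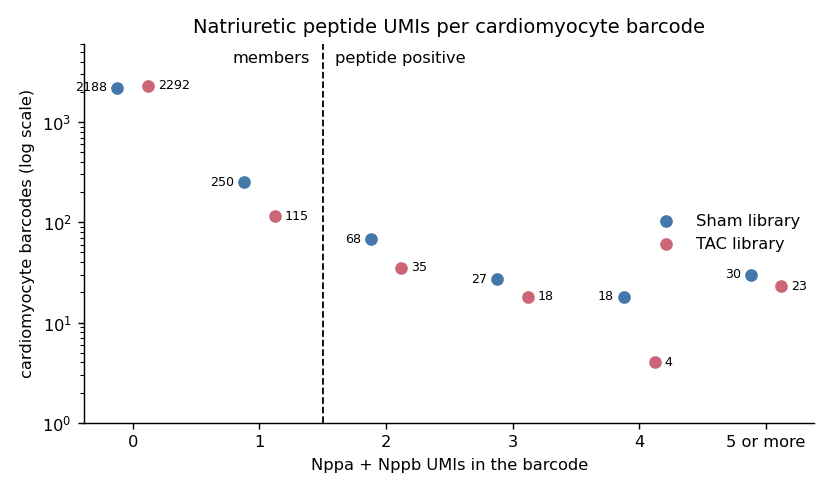
Number of cardiomyocyte barcodes (log scale) by Nppa and Nppb UMIs in the barcode, for the Sham and TAC libraries. Points are single counts, and the dashed line is the limit of the rule. In both libraries most barcodes are at 0, and the TAC library has fewer in each plotted class above 0.

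The peptide level of the members was set by the limit of the rule and is given as a description. It was 19.2 per 1000000 (16.9 to 21.7) in the Sham members and 8.72 (7.20 to 10.5) in the TAC members. Macrophage-marked barcodes (2 or more UMIs of the macrophage genes and Ryr2 with Myh6 under 1%), which should not make the peptides, had 16.2 (11.6 to 22.1) and 18.1 (13.6 to 23.7), with no such limit on them. The interval of the members overlapped theirs in the Sham library and lay below it in the TAC library. Peptide-positive cardiomyocytes had 478 and 604 per 1000000. With each barcode thinned to 1000 UMIs, a peptide UMI was seen in 2.70% of Sham members (2.09 to 3.43) and 1.36% of macrophage-marked Sham barcodes (0.764 to 2.24), against 0.960% and 1.06% in the TAC library. The intervals of these thinned shares overlapped in the Sham library. Without thinning these shares were 10.3% and 2.10% in the Sham library and 4.78% and 1.42% in the TAC library, at median depths of 4526, 1437, 4946 and 1773 UMIs.

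Sequencing depth moved with the peptide classes. The peptide-positive cardiomyocytes were deeper, with medians of 6764 UMIs in the Sham library and 7613 in the TAC library. After all cardiomyocyte barcodes were thinned to 2000 UMIs, which left out 228 Sham and 124 TAC barcodes, 98.1% (97.5 to 98.6) and 98.8% (98.3 to 99.2) were within the limit of the rule. At that depth 91.5% (90.3 to 92.6) of the Sham and 96.1% (95.3 to 96.8) of the TAC cardiomyocytes had 0 peptide UMIs, so the share at 0 was higher in the TAC library beyond counting error.

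The lower limit on Ryr2 and Myh6 cut between deep and shallow barcodes. Just inside it, at 1 to 1.5% of UMIs, lay 101 Sham and 131 TAC members with medians of 4105 and 4828 UMIs. Just outside it, at 0.5 to 1%, lay 298 and 142 barcodes with medians of 777.5 and 904 UMIs. The endothelial receptor Flt1 was at 948 and 870 per 1000000 outside and at 44.0 and 41.4 inside.

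Beyond the genes of the rule, the RNA of the members was set against all other barcodes of the same library, as a description of cells chosen by their RNA. The 15 genes with the highest ratio in the Sham library (among genes with at least 500 UMIs) had ratios of 7.25 to 9.56, and all were higher in the TAC members too, by 7.27 to 11.4. Of all Mhrt UMIs in the library, a long noncoding RNA from the myosin heavy chain locus, 87.6% lay in the Sham members and 90.2% in the TAC members. Dsg2, a desmosomal cadherin, was at 196 per 1000000 in the Sham members and 25.5 in the other barcodes, and at 205 and 23.7 in the TAC library. Slc38a3, a glutamine transporter, was at 249 against 33.6 in the Sham library and at 137 against 14.6 in the TAC library. Ucp3, an uncoupling protein of the mitochondrial inner membrane, was at 66.4 against 8.86 and at 41.2 against 5.40. The kinase gene Wnk2 and the hemojuvelin gene Hjv were among the 15 as well.

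What the limit of 1 peptide UMI separates was seen by setting the members against the peptide-positive cardiomyocytes, the contrast that the rule itself made. A gene is called past 2-fold here when its level per 1000000 UMIs differed at least 2-fold and both groups together held at least 100 UMIs. In the Sham library 89 of 9276 genes (0.959%) were at least 2-fold lower in the members and 283 (3.05%) at least 2-fold higher. In the TAC library, with 80 peptide-positive barcodes, 220 of 9499 (2.32%) were lower and 523 (5.51%) higher. The interval of the ratio excluded 1 for 89 of the 89 lower but only 190 of the 283 higher Sham genes. For the TAC library it did so for 211 of the 220 lower and 229 of the 523 higher genes. The TAC split depended on the minimum: with 20 UMIs 1433 genes were lower and 1027 higher. Over the 8901 genes measured in both, 27 were lower in the members of both libraries, which was 38% of the Sham genes and 14.1% of the TAC genes. The count higher in both was 51, or 21.2% and 12%.

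Ankrd1, a stretch-responsive protein of the titin complex, had 3513 UMIs in the Sham members and 1004 in the far fewer peptide-positive Sham barcodes. Its level was 270 per 1000000 in the members and 959 (900 to 1020) in the peptide-positive cells, a ratio of 0.281 (0.262 to 0.302). In the TAC library it was 244 against 1801 (1699 to 1909), a ratio of 0.135 (0.126 to 0.145). Acta1, the skeletal actin of the fetal heart, was at 27.7 against 98.4 in the Sham library, a ratio of 0.282 (0.226 to 0.354). In the TAC library Acta1 was at 7.58 against 83.2, a ratio of 0.0912 (0.0647 to 0.130). Both genes were thus lower in the members of each library, and the ratio was further from 1 in the TAC library. After thinning to 2000 UMIs, Acta1 was seen in 4.42% of Sham members (3.60 to 5.36) and 1.04% of macrophage-marked Sham barcodes (0.284 to 2.64). In the TAC library the shares were 1.14% (0.745 to 1.66) and 0.503% (0.104 to 1.46), and these intervals overlapped. At 1000 UMIs the intervals overlapped in both libraries. How much of the Acta1 RNA in the members is background was not tested.

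Other genes of the 8 lowest in the Sham members were not of the fetal program. Slc24a2, a sodium, calcium and potassium exchanger, was at 14.98 against 63.03 per 1000000 in the Sham library and 11.8 against 50.2 in the TAC library. Bcl2, which protects cells from apoptosis, was at 18.6 against 64.0 and at 13.2 against 51.8. Ppm1e, a protein phosphatase, was at 125 against 342 and at 116 against 435. Dct, an enzyme of melanin synthesis, was at 15.4 against 50.6 and at 15.9 against 34.5, Ttll7, a tubulin glutamylase, at 18.9 against 57.3 and at 12.2 against 31.4, and Gm41505 at 12.99 against 42.02 and at 9.18 against 43.9. All 8 were below a ratio of 0.5 in the TAC library as well. The 27 genes also held the small heat shock gene Hspb1 (ratios 0.483 and 0.198), Scube2 (0.383 and 0.245) and the immediate-early gene Nr4a1 (0.426 in the Sham library); these were chosen from the 27 after their values were seen.

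The genes higher in the members rested on very few peptide-positive UMIs. Gm40604 had 345 UMIs in the Sham members and 4 in the peptide-positive barcodes, a ratio of 6.94 (2.69 to 25.6), and the TAC ratio was 3.01 (1.37 to 8.26). Prr29 had 307 and 7 UMIs, a ratio of 3.53 (1.69 to 8.85), and a TAC ratio of 4.53 (1.53 to 22.1). Fah, the last enzyme of tyrosine breakdown, had 266 and 6 UMIs in the Sham library and 84 and 0 in the TAC library. The channel gene Kcnt2 and the signalling gene Rgs13 had Sham ratios of 4.20 and 3.52 and TAC ratios of 1.16 (0.705 to 2.05) and 1.19 (0.698 to 2.20). Of the 8 genes, only Gm40604, Prr29 and Fah had TAC intervals above 1.

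The members were not uniform on the 2 sides of the single peptide UMI. Ankrd1 was at 244 per 1000000 (235 to 253) in the 2188 Sham members with 0 peptide UMIs and at 484 (449 to 522) in the 250 with 1 UMI. It was at 803 (737 to 874) in barcodes with 2 to 3 UMIs and 1231 (1122 to 1347) with 4 or more. In the TAC library the same 4 levels were 205 (197 to 213), 903 (835 to 975), 1054 (956 to 1158) and 3124 (2899 to 3360). The level was higher at each step in both libraries, and the intervals of neighbours overlapped only between 1 UMI and 2 to 3 UMIs in the TAC library.

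Acta1 followed the same order with wider error. It was at 24.3 (21.6 to 27.3), 55.5 (44.0 to 69.2), 69.1 (50.6 to 92.1) and 150 (113 to 194) per 1000000 in the Sham library. In the TAC library it was at 6.18 (4.88 to 7.72), 31.8 (20.2 to 47.7), 49.1 (30.0 to 75.9) and 143 (98.7 to 201). The middle steps do not differ beyond counting error in either library. Myh7, the slow myosin heavy chain, was higher at each step in the Sham library, with 550, 652, 945 and 1191 per 1000000, and stood at 804, 815, 1002 and 730 in the TAC library; the difference between the libraries was not tested.

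**Figure D2:**
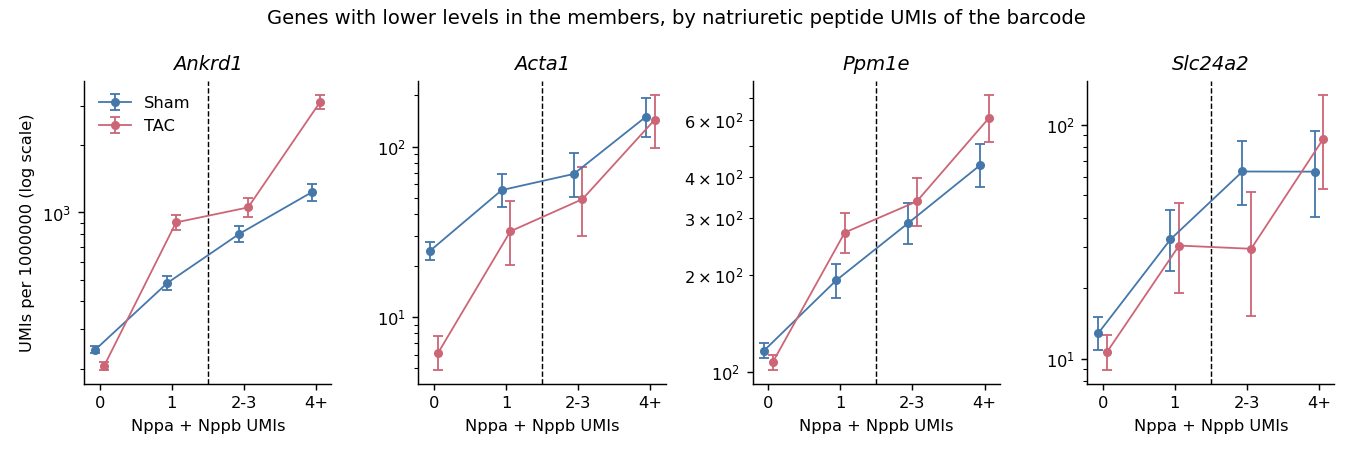
Level (UMIs per 1000000, log scale) of Ankrd1, Acta1, Ppm1e and Slc24a2 in cardiomyocyte barcodes with 0, 1, 2 to 3 and 4 or more peptide UMIs. Points are pooled levels, bars are exact Poisson 95% intervals, and members lie left of the dashed line. All 4 genes are lowest at 0 UMIs in both libraries.

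Depth rose with the peptide UMIs, from a median of 4501.5 UMIs at 0 to 7024.5 at 4 or more in the Sham library, so the levels were read again among cardiomyocytes of 4000 to 8000 UMIs only. Ankrd1 was then at 265 (251 to 280), 497 (442 to 557) and 943 (845 to 1049) per 1000000 at 0, 1 and 2 or more peptide UMIs in the Sham library. In the TAC library it was at 215 (203 to 226), 1199 (1085 to 1321) and 2226 (2037 to 2428). Ppm1e was at 116, 156 and 277 in the Sham library and at 105, 242 and 477 in the TAC library. Acta1 was at 23.3 (19.3 to 28.0) and 21.5 (11.5 to 36.8) at 0 and 1 UMI in the Sham library, where the intervals overlapped, unlike over all depths, and at 5.27 (3.65 to 7.36) and 44.3 (24.8 to 73.0) in the TAC library. The median depths at 0 and 1 UMI in this range were 5470 and 5578 in the Sham library and 5534 and 5585 in the TAC library.

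The positions and start sequences of both peptide genes, Ankrd1 and Acta1 are shown because transcription factors of the stressed heart are known to bind such sequences. In GENCODE M21 (build GRCm38) Nppb lies on the plus strand at chr4:147985788-147987205 and Nppa beside it on the plus strand at chr4:148000722-148002079. Ankrd1 lies on the minus strand at chr19:36111961-36120099 and Acta1 on the minus strand at chr8:123891769-123894751. The 250 bases before each RefSeq start (GRCm38.p6) are given 5′ to 3′ on the strand of the gene, with matches on either strand in capitals to the MCAT motif CATTCC, the GATA motif GATAA, the Nkx2-5 motif AAGTG, and the CArG box named for serum response factor.
Nppb: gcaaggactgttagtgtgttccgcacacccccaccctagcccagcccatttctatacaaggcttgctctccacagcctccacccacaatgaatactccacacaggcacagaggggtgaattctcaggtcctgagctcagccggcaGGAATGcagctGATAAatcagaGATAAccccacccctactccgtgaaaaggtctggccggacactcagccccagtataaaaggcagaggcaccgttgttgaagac
Nppa: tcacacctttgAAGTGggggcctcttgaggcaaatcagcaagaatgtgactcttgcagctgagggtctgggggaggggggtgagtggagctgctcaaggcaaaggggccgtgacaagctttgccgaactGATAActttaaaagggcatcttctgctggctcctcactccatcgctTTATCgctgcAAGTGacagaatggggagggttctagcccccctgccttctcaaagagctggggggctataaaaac
Ankrd1: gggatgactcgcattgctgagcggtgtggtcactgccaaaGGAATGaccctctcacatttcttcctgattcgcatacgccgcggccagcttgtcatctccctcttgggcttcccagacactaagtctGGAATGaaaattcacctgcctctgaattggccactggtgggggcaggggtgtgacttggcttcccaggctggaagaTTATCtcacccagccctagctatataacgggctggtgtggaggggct
Acta1: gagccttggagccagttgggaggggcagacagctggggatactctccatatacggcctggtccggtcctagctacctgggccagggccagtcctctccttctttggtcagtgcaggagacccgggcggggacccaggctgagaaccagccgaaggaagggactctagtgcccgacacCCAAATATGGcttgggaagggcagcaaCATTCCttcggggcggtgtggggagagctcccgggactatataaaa
The windows are chr4:147985650-147985899, chr4:148000472-148000721, chr19:36119845-36120094 and chr8:123894776-123895025. The RefSeq and GENCODE starts differ: the Ankrd1 window lies wholly inside the GENCODE gene, and so do the MCAT and GATA matches of Nppb, while the Nppa and Acta1 windows lie before their genes. An MCAT match was found in Nppb (1), Ankrd1 (2) and Acta1 (1), and 12.6% of 32851 RefSeq windows of this length hold one. A GATA match was found in Nppb (2), Nppa (2) and Ankrd1 (1), against 22.6% of windows. The Nkx2-5 motif was found in Nppa (2), against 40.7%, and the CArG box in Acta1 (1), against 1.47%. A match describes letters only and says nothing of binding in these cells.

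The study design compares pressure overload with sham operation, and this was asked of the members alone. Of 11446 genes with at least 100 UMIs over both libraries, 470 (4.11%) were at least 2-fold higher in the TAC members and 113 (0.987%) at least 2-fold lower. The median log2 ratio was 0.01, and 62.4% of the genes lay between 0.8 and 1.25. With called doublets removed 447 genes were higher and 110 lower, and with limits on endothelial and pericyte RNA 456 and 115. Among barcodes of 4000 to 8000 UMIs 259 were higher and 84 lower. The minimum of 100 UMIs was kept on these fewer barcodes, so fewer genes could pass it. The genes tested under these alternatives were not counted, so their counts have no shares.

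**Figure D3:**
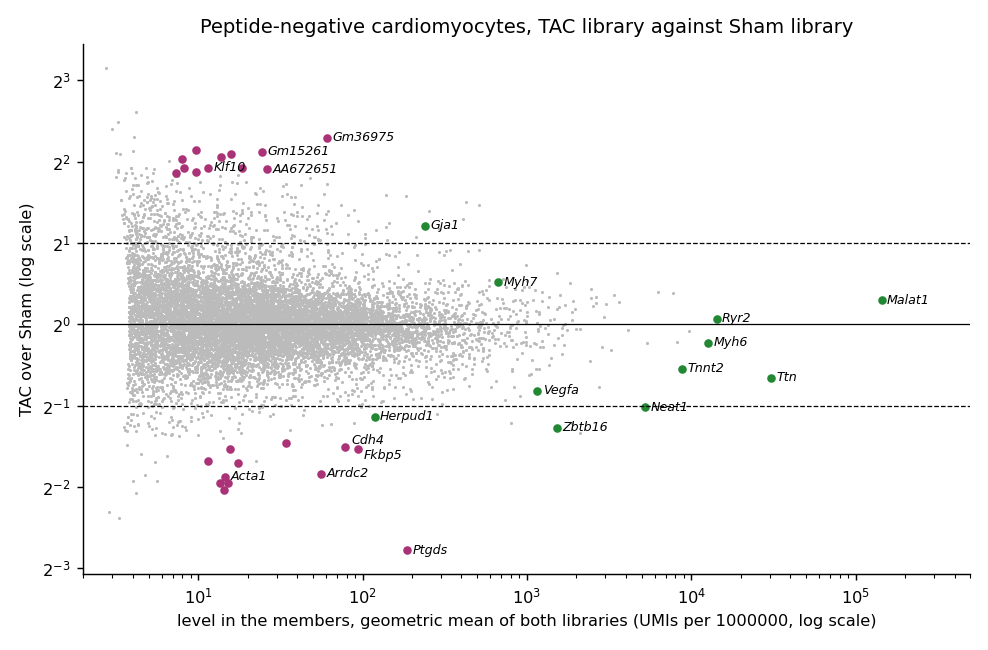
Ratio of TAC to Sham (log scale) for each of 11446 genes in the members against its level (UMIs per 1000000, log scale). Each point is 1 gene, the purple points are the 12 highest and 12 lowest under the naming rule, the green points are other genes of the text, and dashed lines mark 2-fold. Ptgds is the lowest named gene at 0.146 and Gm36975 the highest at 4.91.

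The lowest of the named genes was Ptgds, the synthase of prostaglandin D2, with 6372 UMIs in the Sham members and 944 in the TAC members, or 490 (478 to 502) and 71.6 (67.1 to 76.3) per 1000000. The ratio was 0.146 (0.136 to 0.157), and it was 0.141 (0.114 to 0.172) in the other barcodes. The other barcodes here are those under the lower limit on Ryr2 and Myh6, macrophage and fibroblast classes included. Fkbp5, a co-chaperone of the glucocorticoid receptor that glucocorticoids induce, went from 159 to 55.2 per 1000000, a ratio of 0.347 (0.319 to 0.378), with 0.450 in the other barcodes. Acta1 went from 27.7 to 7.58, a ratio of 0.273 (0.217 to 0.342), with 0.295 in the other barcodes. Each of these was therefore lower outside the members too. After thinning to 2000 UMIs, Fkbp5 was seen in 24.2% of Sham members, 84.4% of macrophage-marked barcodes and 62.0% of the fibroblast class. In the TAC library these shares were 10.2%, 53.0% and 44.2%. Ptgds was seen more often in Sham members (41.1%) than in those classes (7.01% and 5.31%). Acta1 in the other barcodes rested on 192 Sham and 62 TAC UMIs. How much of this RNA in the members came from other cells was not tested.

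Other low genes were Arrdc2, an arrestin-domain gene, at 106 and 29.7 per 1000000 (ratio 0.280, 0.250 to 0.314), and Cdh4, a cell adhesion cadherin, at 133 and 46.8 (0.353, 0.321 to 0.387). Cdh4 had a ratio of 0.710 (0.584 to 0.863) in the other barcodes. Sema5a, a semaphorin known from axon guidance, was at 56.5 and 20.6 (0.365, 0.317 to 0.420), with 0.826 in the other barcodes. The scaffold gene Cnksr1 (0.244), the interferon-inducible Gbp6 (0.308), Fah (0.312) and the noncoding 5730419F03Rik (0.259) were also among the 12 lowest. Gm49839 (0.259) lies within Fkbp5 and Gm18981 (0.347) within Cacna1c on the same strand, so their reads may belong to the host gene.

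Of the 12 highest genes, Klf10, a zinc finger factor induced by TGF-beta, was one of the few with a known role. It had 77 UMIs in the Sham members and 296 in the TAC members, or 5.92 and 22.5 per 1000000, a ratio of 3.79 (2.94 to 4.94), with 1.43 in the other barcodes. Gm36975, annotated antisense to Rabgap1l, went from 27.5 (24.7 to 30.5) to 135 (129 to 141), a ratio of 4.91 (4.38 to 5.51). AA672651, antisense to the myosin light chain kinase gene Mylk3, went from 13.6 to 51.0, a ratio of 3.75 (3.17 to 4.45). Gm15261, antisense to Arhgap6, had 4.35 (3.64 to 5.22), Gm15632, antisense to Oxct1, 3.79, and Gm43376, antisense to Nbea, 3.65. The remaining 6, Gm10118, Gm5149, Unc45bos, Gm44144, Gm26936 and Gm47827, had ratios of 3.63 to 4.43. Among coding genes chosen after their values were seen, the potassium channel gene Kcnh7 went from 24 to 120 UMIs and the purinergic receptor gene P2ry12 from 94 to 338.

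Antisense annotation ran through the higher genes. Of the 470, 179 (38.1%) were annotated antisense, against 4.55% of all genes tested. Seen the other way, 179 of 521 antisense genes (34.4%) were at least 2-fold higher in the TAC members, and 455 of 521 were above 1, with a median ratio of 1.73. For protein-coding genes the counts were 162 of 9867 (1.64%), with a median ratio of 0.989. In the barcodes of neither cardiomyocyte, macrophage nor fibroblast class 189 of 465 antisense genes (40.6%) were at least 2-fold higher. Their median ratio was 1.84, so the shift was present outside the members as well. How the counting treated strand is not given in the sources used here, so reads of a gene and of its antisense partner cannot be told apart.

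**Figure D4:**
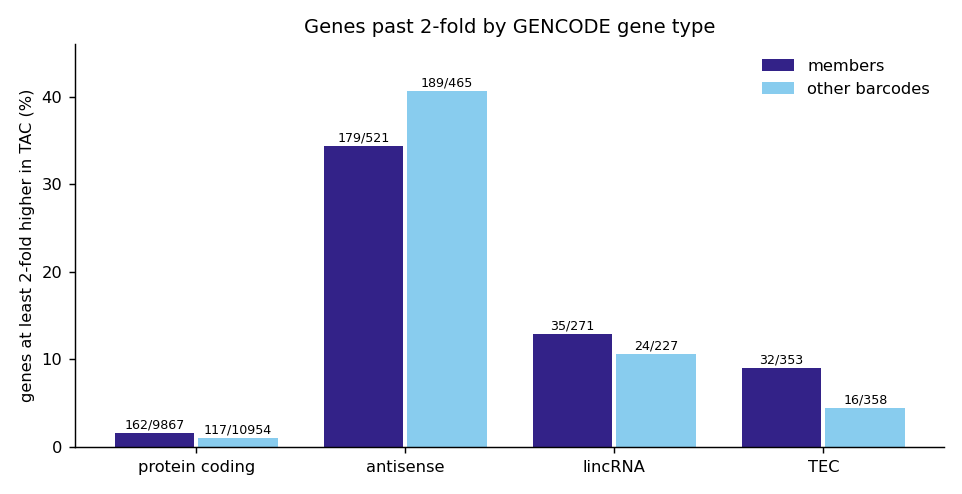
Percent of genes at least 2-fold higher in TAC than in Sham, by GENCODE gene type, in the members and in the other barcodes. The other barcodes here are those of neither cardiomyocyte, macrophage nor fibroblast class. Bars start at 0 and carry the number of genes past 2-fold over the number tested; TEC is the GENCODE class of genes still to be tested by experiment. The antisense bars stand at 34.4% and 40.6%, against 1.64% and 1.07% for protein-coding genes.

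The other genes of cardiac pathways were read from 22 lists with 459 genes, of which 418 passed the count minimum. Of these, 2 were at least 2-fold higher and 11 at least 2-fold lower in the TAC members, or 0.478% and 2.63%, beside 4.11% and 0.987% of all genes tested.

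**Figure D5:**
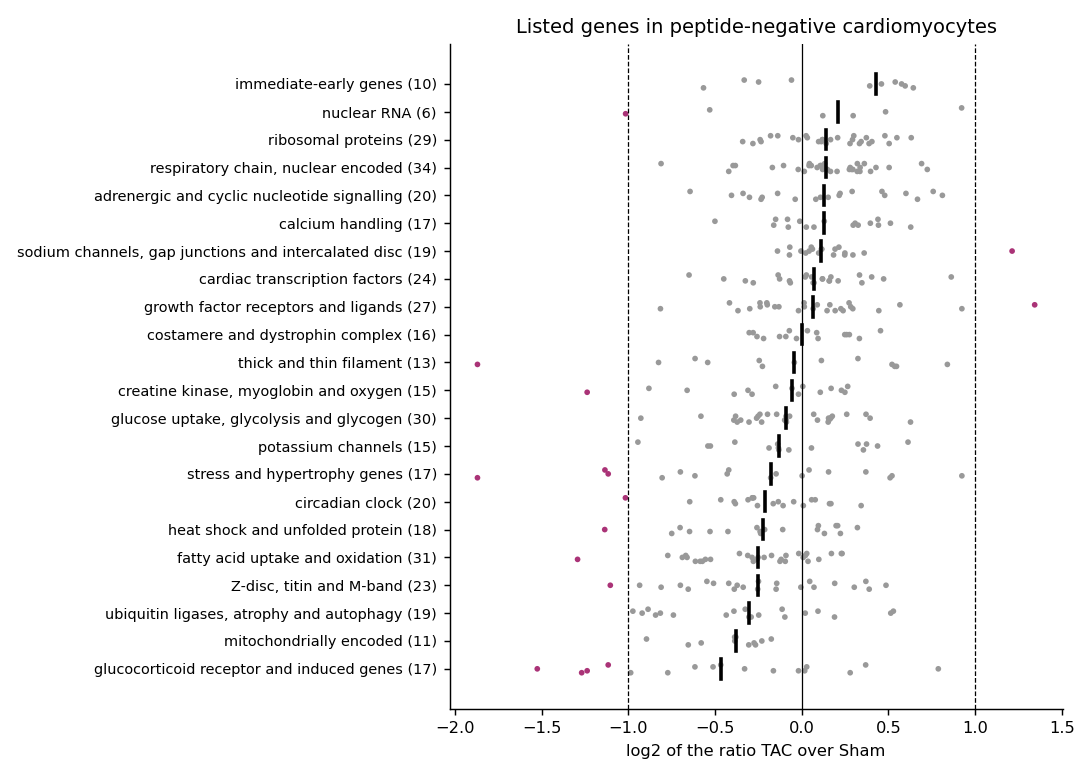
Log2 ratio of TAC to Sham in the members for the genes of 22 lists (number past the count minimum in brackets). Each point is 1 gene, the bar is the median of the list, purple points are past 2-fold (dashed lines). The glucocorticoid list has the lowest median, at -0.47, and the immediate-early list the highest, at 0.43.

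In the sarcomere, genes of the thick and thin filament had a median log2 ratio of -0.04, with 6 of 13 above and 7 below 1. Titin (Ttn), the giant spring of the sarcomere, had 497919 and 320383 UMIs, 38258 and 24300 per 1000000, a ratio of 0.635 (0.632 to 0.638). Tnnt2 was at 10588 and 7270, a ratio of 0.687 (0.681 to 0.692), and the myosin-binding protein Mybpc3 at 1305 and 852, a ratio of 0.653. Tropomyosin (Tpm1) went the other way, from 831 to 1206 (ratio 1.45), as did the cardiac actin Actc1 from 256 to 374 (1.46). Myh7, a fetal myosin that rises with pressure overload, went from 561 to 804 per 1000000, a ratio of 1.43 (1.39 to 1.48), while it was 0.963 in the other barcodes. The rule genes Myh6 and Ryr2 had ratios of 0.854 and 1.05.

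Among 23 Z-disc, titin and M-band genes past the minimum, 16 were below 1 and 1, Myom2, which crosslinks myosin at the M-band, was past 2-fold, at 417 and 194 per 1000000 (ratio 0.465, 0.444 to 0.488). Xirp2, an actin-binding protein of the intercalated disc, was at 826 and 509 (0.615). The LIM domain protein Fhl2 was at 6732 and 8817 (1.31).

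Of 17 calcium genes past the minimum, 0 were past 2-fold in either direction and 11 were above 1. The calcium pump Atp2a2 was at 2205 and 2763 per 1000000 (1.253), its inhibitor Pln at 1528 and 2179 (1.43), the exchanger Slc8a1 at 5505 and 7243 (1.32) and the channel subunit Cacnb2 at 1222 and 1890 (1.55). Of 15 potassium channel genes, 0 were past 2-fold, and the hERG channel gene Kcnh2 was the lowest, at 76.4 and 39.7 (0.519). Of 19 sodium channel, gap junction and intercalated disc genes, 15 were above 1, and Gja1, the connexin of ventricular gap junctions, was past 2-fold. It had 2049 and 4814 UMIs, 157 and 365 per 1000000, a ratio of 2.32 (2.20 to 2.44), with 1.53 in the other barcodes. After thinning to 2000 UMIs it was seen in 23.9% of Sham and 43.0% of TAC members.

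The stress and hypertrophy list, which the peptide limit of the rule touches, had 3 of 17 genes at least 2-fold lower and 0 higher in the TAC members. These were Acta1, Mt2, a metallothionein, at 17.6 and 8.12 per 1000000 (0.461, 0.363 to 0.583), and Nppb, whose UMIs the rule limits to 1 per barcode. Ankrd1 was at 270 and 244 (0.902, 0.860 to 0.947). Tgfb2, a growth factor of fibrosis, was at 30.5 and 57.9 (1.90, 1.68 to 2.15). The median log2 ratio of the list was -0.18, beside 0.01 for all genes.

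The list of the glucocorticoid receptor and its induced genes had the lowest median, -0.47, with 4 of 17 genes past 2-fold lower, 0 higher and 12 below 1. Zbtb16, a transcriptional repressor strongly induced by glucocorticoids, had 30644 and 12877 UMIs, 2355 and 977 per 1000000, a ratio of 0.415 (0.406 to 0.423), and 0.252 in the other barcodes. Beside Zbtb16, Fkbp5 and Mt2, the fourth was the hypoxia factor Hif3a, at 11.4 and 4.85 (0.424, 0.311 to 0.572). Klf15 was at 64.8 and 45.4 (0.701), Pdk4, which turns off glucose oxidation, at 346 and 203 (0.585), and the cell cycle inhibitor Cdkn1a at 34.3 and 17.3 (0.505). The receptor gene Nr3c1 itself was at 115 and 140 (1.21).

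Metabolic lists differed in their medians. Of 31 fatty acid genes past the minimum, 23 were below 1 and the median log2 ratio was -0.25; Pnpla2, the lipase that opens triglyceride stores, was at 56.3 and 23.0 per 1000000 (0.408, 0.356 to 0.467). The fatty acid carrier Cd36 was at 1389 and 1145 (0.824) and the transporter Slc27a1 at 526 and 331 (0.629). Of 34 nuclear genes of mitochondrial energy supply (respiratory chain, citric acid cycle, ADP carrier and creatine kinase), 27 were above 1 with a median of 0.14; cytochrome c (Cycs) was at 34.2 and 55.2 (1.61) and the isocitrate dehydrogenase Idh2 at 431 and 246 (0.570). All 11 mitochondrially encoded genes past the minimum were below 1 with a median of -0.38, beside the lower mitochondrial share of the TAC library. Of 30 genes of glucose use, 0 were past 2-fold.

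Of 18 heat shock and unfolded protein genes past the minimum, 11 were below 1, with a median log2 ratio of -0.23, and 1 was past 2-fold. This was Herpud1, which helps to clear misfolded proteins from the endoplasmic reticulum, at 175 and 79.8 per 1000000 (0.455, 0.422 to 0.490). The chaperone Hspa5 was at 65.7 and 39.1 (0.595). Of 19 genes of ubiquitin ligases, atrophy and autophagy, 14 were below 1 and 0 past 2-fold, with Foxo3, a driver of muscle atrophy genes, at 425 and 216 (0.509), Bnip3, a receptor for the removal of mitochondria, at 96.2 and 50.8 (0.528) and the autophagy kinase Ulk1 at 58.5 and 31.6 (0.541). In the circadian clock list 14 of 20 genes were below 1, and the output factor Tef was past 2-fold, at 139 and 68.5 (0.494, 0.456 to 0.536).

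Regulators and signals gave 2 further genes past 2-fold, Nrg1 (higher) and Neat1 (lower). Nrg1, a ligand of ErbB receptors, had 35 and 90 UMIs (ratio 2.54, 1.70 to 3.87), but 1.23 with called doublets removed and 1.49 with limits on endothelial and pericyte RNA. Vegfa, the growth factor of blood vessels, was at 1537 and 874 per 1000000 (0.568, 0.555 to 0.582). The cardiac transcription factor Hand2 was at 73.9 and 134 (1.82), with 16 of 24 cardiac transcription factor genes above 1 and 0 past 2-fold. Of 10 immediate-early genes past the minimum, 6 were above 1 with a median of 0.43, and Nr4a1 was at 9.76 and 15.2 (1.56, 1.24 to 1.97). Neat1, the noncoding RNA of nuclear paraspeckles, was at 7487 and 3702 (0.494, 0.489 to 0.4999), while Malat1 of the nuclear speckles was at 129883 and 159532 (1.23).

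Variation among the members was described by the variance of Pearson residuals, which is near 1 for counting noise. It was above 2 for 399 of 9024 genes (4.42%) in the Sham members and 376 of 9341 (4.03%) in the TAC members. Malat1 had the highest variance in both, 17.3 and 18.8. Ankrd1 ranked 6 and 2: it was seen in 31.9% of Sham and 24.7% of TAC members, and the 5% of members with most of it held 54.5% and 67.3% of its UMIs. After thinning to 1000 UMIs Ankrd1 was seen in 14.975% of Sham members (13.6 to 16.5) and 2.91% of macrophage-marked barcodes (1.996 to 4.08), and in 11.6% and 1.71% in the TAC library. It was thus uneven among the members and above the background share.

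Other variable genes were Ttn, Fhl2, Tnnt2, Myh6, Neat1, Gm12381 and the ribosomal repeat Rn18s-rs5, with Angpt1, a growth factor for vessels, at rank 25 in the Sham and 5 in the TAC members. Across members the residuals of Tnnt2 and Malat1 had a correlation of -0.37 in the Sham library (n = 2438) and -0.40 in the TAC library (n = 2407), and those of Tnnt2 and Myh6 0.47 and 0.43. Ankrd1 and Ppm1e had 0.20 and 0.31, which is weak in counts this sparse. These pairs were chosen after their values were seen. All pairs share the libraries and each barcode's depth, and the values are a description.

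Gpc6, Slit3 and Ebf1, genes of connective tissue and vessel-wall cells, were also among the variable genes. The 93 Sham and 93 TAC members with at least 5 Gpc6 and Ebf1 UMIs held 63.5% and 70.0% of those UMIs, and 80 and 89 of them were called doublets. In these barcodes the fibroblast markers were at 463 and 413 per 1000000, against 28.1 and 41.7 in the remaining members, and the pericyte markers at 757 and 893 against 244 and 327. Gpc6 and Ebf1 RNA in the members was therefore mostly in barcodes with RNA of other cells.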

How the data were processed

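Single-cell suspensions of Sham and TAC mouse hearts were profiled on the 10x Chromium platform, with the 3-prime kit V3 per the labels. The deposited matrices hold raw UMI counts, which the authors made with Cell Ranger (7.1.0 in the submitters' processing notes) and did not normalize. The paper's methods name earlier versions of the kit and of Cell Ranger, and which were used cannot be told apart here. Intron counting and the build are not given in the sources used here. Of 55357 gene identifiers, 52081 (94.1%) were in GENCODE M21, which gave positions and gene types.

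Members, gene lists and naming rules were chosen with earlier results of these data known. Barcodes were kept whatever their mitochondrial share, and doublets called by Scrublet (scanpy 1.11.5, expected rate 0.8% per 1000 barcodes) stayed in. UMIs were summed over barcodes and given per 1000000, with exact Poisson intervals for levels, Clopper-Pearson intervals for shares and exact conditional binomial intervals for ratios (95%, counting error only). A 0 was set to 3 counts in ratios. Genes needed 100 UMIs over both groups and 2-fold. Named were the 12 highest and 12 lowest genes between libraries (at least 50 UMIs in the lower library or 300 in the other; no mitochondrial, hemoglobin, rule or other-cell marker genes), the 8 highest and 8 lowest against peptide-positive cells in the Sham library (200 UMIs), the 10 most variable per library, the 15 highest against all other barcodes (500 UMIs), and listed genes. Thinning drew UMIs once (seed 1); residuals used theta 100. Python 3.11.15, numpy 2.4.6, scipy 1.17.1, pandas 2.3.3, anndata 0.12.19 and matplotlib 3.10.9 were used, and steps were tested on simulated data. The alternatives were other thresholds of the rule, doublets removed, other scalings, other count and fold minimums and other thinning depths. Where a symbol had several identifiers, that with most UMIs was used.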

Additional observations from a re-analysis of the deposited data

Results flagged for a closer look

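Opposite directions in the 2 libraries drew attention to 3 genes among the 8 that were highest in the Sham members against peptide-positive cardiomyocytes, and the difference between the libraries was not tested. Lsamp, a neuronal adhesion gene, had a ratio of 6.30 in the Sham library, from 235 and 3 UMIs, and 0.894 in the TAC library, from 222 and 12 UMIs. Disp1, which releases hedgehog proteins, had 4.81 in the Sham library, from 299 and 5 UMIs, and 0.750 in the TAC library, from 326 and 21 UMIs. Dand5, a secreted antagonist of nodal, had 3.70 in the Sham library, from 276 and 6 UMIs, and 0.746 in the TAC library, from 247 and 16 UMIs. The TAC intervals of all 3 include 1 (0.502 to 1.76, 0.483 to 1.23 and 0.450 to 1.33).
Between libraries, 2 listed genes past 2-fold went the opposite way in the other barcodes, and that difference was not tested either. The other barcodes here are those with Ryr2 and Myh6 under 1% of UMIs, macrophage and fibroblast classes included. The metallothionein gene Mt2 had a TAC to Sham ratio of 0.461 in the members and 1.18 in the other barcodes. Nppb, which the rule limits in the members alone, had 0.455 in the members and 1.07 in the other barcodes. The 1.07 rested on few UMIs, with 23 Sham and 40 TAC UMIs in macrophage-marked barcodes. Barcodes of neither macrophage nor fibroblast class had 65 Nppb UMIs of 8834482 in the Sham library and 66 of 9514261 in the TAC library. In those barcodes the Nppb level was not higher in the TAC library.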

How the results depend on the processing

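No paired analysis was possible because there was 1 library per condition. The share of members in the Sham library was 25.62% with at least 500 detected genes; with Ryr2 and Myh6 at 2% it was 20.43% (Sham) and 19.3% (TAC), with Nppa and Nppb at 0 22.03% and 23.08%, and with limits on endothelial and pericyte RNA 22.81% and 21.36%. Within the limit after thinning were 99.18% and 99.6% at 1000 UMIs, and 96.06% and 97.77% at 4000. The genes higher and lower in TAC members numbered 1224 and 357 at a minimum of 20 UMIs, 125 and 34 at 500, and 1145 and 661 at 1.5-fold. The genes lower and higher in members than in peptide-positive cells were 533 and 995 (Sham) and 1433 and 1027 (TAC) at 20 UMIs, 8 and 9 and 29 and 60 at 500, 481 and 878 and 888 and 1333 at 1.5-fold, and 21 and 57 and 82 and 167 with the peptides at 0, where the contrast becomes 1 or more UMIs against 0. Among barcodes of 4000 to 8000 UMIs, an alternative chosen after seeing the data, 259 genes were higher in TAC members and 4 listed genes were. The minimum of 100 UMIs was kept there, so fewer genes could be called. With doublets removed 1 listed gene was higher, and 1 with Ryr2 and Myh6 at 2%. All 24 named genes stayed past 2-fold in their direction in all 240 values under alternatives. Tef moved to 0.5004 with doublets removed and Neat1 to 0.5034 at 2%. No called ratio of a single gene changed direction. Of 1069 single-gene values under alternatives, 967 stayed within their main interval. Genes under 100 UMIs and contrasts with 80 and 143 peptide-positive barcodes are limited by depth.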
